A study of Mus musculus with 6 samples.

Results

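The peaks described here belong to 8 genes, Angpt1, Flt1, Osmr, Itgb8, Lamb1, Lama4, Gng2 and Ddit4. They were chosen by expression that is higher in muscle stem cells (MuSCs) of Taf4a sKO mice in the study and by their ATAC-seq values. Each gene carries a peak that is more than 1.5-fold higher in these cells than in control MuSCs. A peak was counted as theirs when the deposited table gives it their symbol, or when it has no gene and lies between their start and end. This gave 39 of the 75412 peaks of the table, 24 annotated to a member and 15 inside a member without a gene of their own. All 39 passed the filter of a mean value above 10, as did 75384 of all peaks. Since the contrast between the genotypes chose the genes, their own differences are described without a test. RNA levels were not analysed here.

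ATAC-seq, in which Tn5 transposase cuts and tags accessible DNA, was performed on freshly isolated MuSCs, with 3 libraries from control and 3 from Taf4a sKO mice, all C57BL/6. Both genotypes are homozygous for the floxed Taf4a allele (Taf4a fl/fl). Taf4a sKO mice also carry a tamoxifen-inducible Cre at the Pax7 locus (Pax7CE) and received tamoxifen as adults, whereas control littermates either lacked this Cre or carried it, and whether the controls of these libraries received tamoxifen is not given for this experiment in the sources used here. Deletion is thus limited to cells that use the Pax7 locus and to those in which recombination took place. The study's methods sort MuSCs from muscle either as integrin alpha-7-positive cells that lack CD45, CD31 and SCA1 or by a Pax7-zsGreen reporter, and which scheme served each library is not stated in the sources used here. Values are read counts per peak that the authors normalized for sequencing depth and rounded. Control libraries had 27.2, 35.2 and 34.7 M reads in peaks, and Taf4a sKO libraries had 31.9, 30.4 and 32.5 M.

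In the targeted gene, listed under the symbol Taf4, the peak over the floxed exon 12 had values of 65, 78 and 137 in control and 44, 22 and 25 in Taf4a sKO MuSCs. The genotypes did not overlap there, and the log2 fold change was -1.58 (limma, adjusted p = 3.4e-04). Other Taf4 peaks changed as well, since those over exon 7 (log2 fold change -0.83; limma, adjusted p = 1.4e-04) and in an intron (-0.49) fell and one upstream rose (0.55). The 8 MuSC marker genes all had a peak, and the level at the peak nearest their start site had a median of 1277 per kb in control and 1202 per kb in Taf4a sKO MuSCs. The peak near Cdh15, a cadherin of satellite cells, was the highest of the MuSC markers per kb. For the marker lists of 5 other cell types of muscle these control medians ran from 183 per kb (endothelial cells) to 593 per kb (immune cells, 2 genes). The lists are not fully alike. All 8 MuSC peaks lay within 1000 bp of the start site, but those of Pecam1, Cdh5, Csf1r, Acta1 and Pdgfra lay 2177 to 10189 bp away. Tek (904 per kb), Cd68 (951) and Pdgfrb (859) were near the MuSC markers Calcr (860) and Chrdl2 (867) in control. The remaining markers of the 5 lists were at 730 per kb (Col1a1) or lower.

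The 8 genes encode parts of the route by which growth factors, cytokines and the extracellular matrix signal to phosphoinositide 3-kinase (PI3K), the kinase Akt and mTOR. The study shows genes with raised expression as a set for the PI3K-Akt pathway, so nothing is read from the route that the members share. Secreted ligands bind receptor tyrosine kinases or cytokine receptors, laminins bind integrins, and G protein beta-gamma dimers can activate some PI3K forms. Akt then drives growth and survival, and mTOR complex activity is held down by stress-induced inhibitors. In skeletal muscle, MuSCs lie between the myofibre and a laminin-rich basal lamina, and cytokines of the oncostatin M family are known to bear on their quiescence.

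Of the 39 peaks, 25 (64.1%) were more than 1.5-fold higher in Taf4a sKO MuSCs, against 19.4% of all peaks with a mean above 10, and 8 were more than 2-fold higher, against 7.03%. The median log2 ratio was 0.69 over the member peaks and 0.10 over all peaks. At least 1 peak above 1.5-fold was what put a gene among the members, so nothing is read from these shares. Every Taf4a sKO value lay above every control value in 28 peaks, against 32.3% of all peaks, and below every control value in 3 peaks, against 18.0% of all peaks. In the remaining 8 peaks the genotypes overlapped. The peak just above the 1.5-fold limit was one in Angpt1 with a log2 ratio of 0.618, and the peak just below it was the promoter peak of Itgb8 with 0.495. A peak can rise because more cells open it or because each cell opens it more, and in bulk libraries these cannot be told apart.

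**Figure D1:**
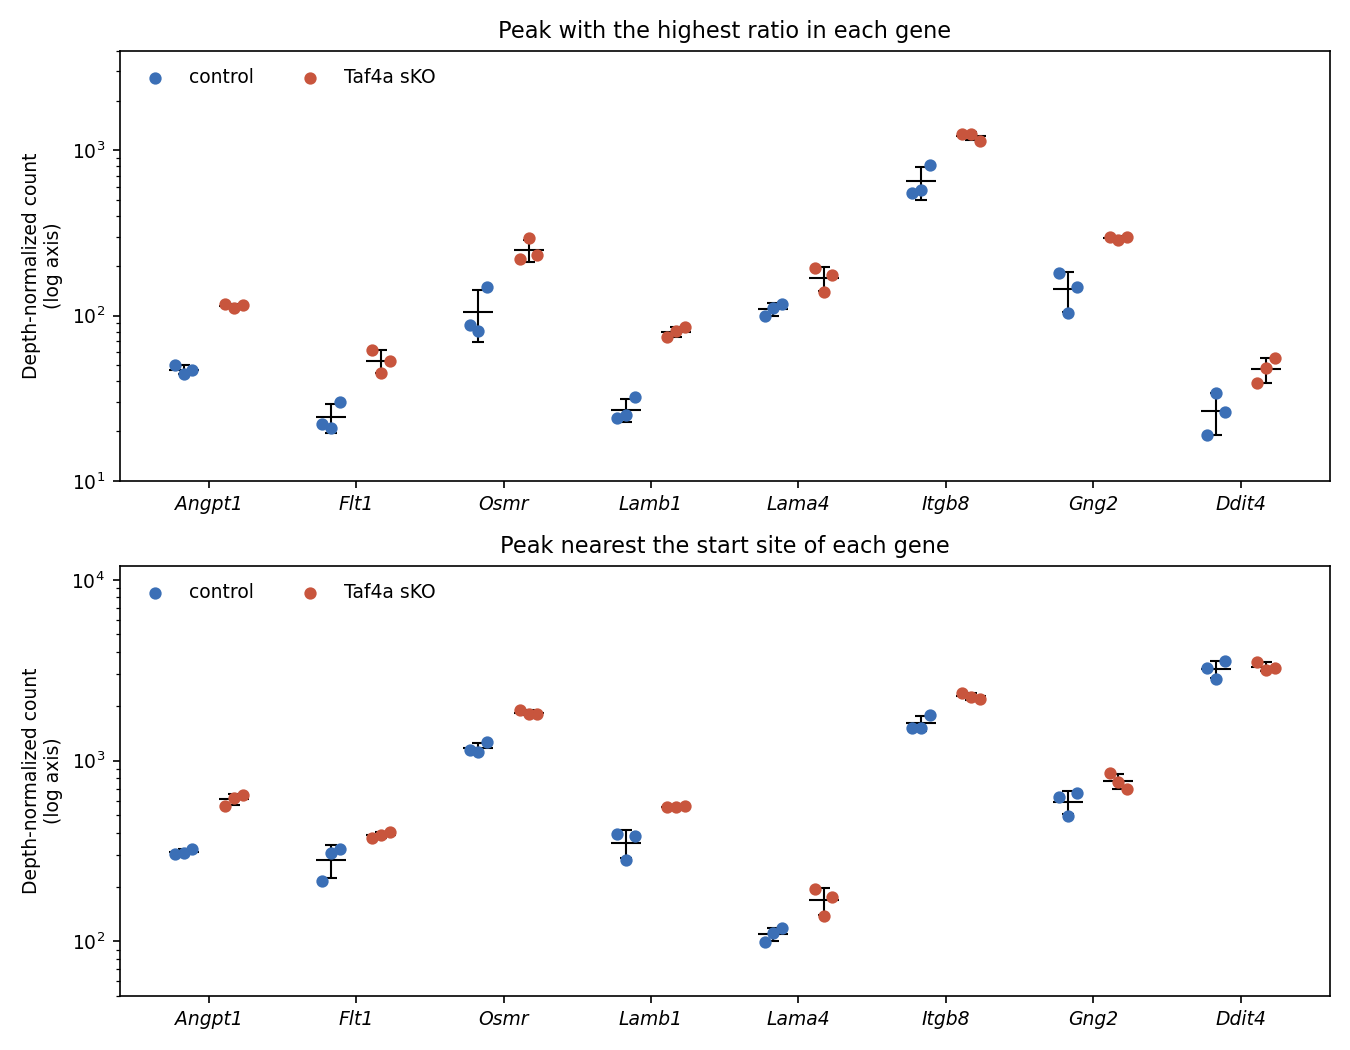
Depth-normalized counts (log axis) in each library for the peak with the highest ratio (top) and the peak nearest the start site (bottom) of the 8 genes. Points are libraries, and black marks show the mean ± SD (n = 3) of control and Taf4a sKO MuSCs; the genotypes overlap only in the start-site peak of Ddit4.

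The position of the strongest rise differed between the genes. The leading peak, meaning the member peak with the highest log2 ratio, was the peak nearest the start site only in Lama4. In the 7 other genes it lay in an intron or outside the gene, and in all 7 it had a lower control value per kb than the start-site peak. Picking the highest ratio favours peaks with low control values. Promoter peaks are also higher in general, with a median control mean of 834 over all of them against 139 over all peaks farther away. Nothing is therefore read from the lower control values of the leading peaks. Peaks above 1.5-fold lay in introns or beyond the gene ends in 21 of 25 cases and at a promoter, within 1000 bp of an annotated start site, in 4 (16.0%), while 5 of the 14 other member peaks (35.7%) were at a promoter. Over all peaks, 25.2% were at a promoter, and 7.60% of promoter peaks were above 1.5-fold compared with 23.4% of the peaks farther away. The median log2 ratio was 0.50 over the 9 promoter peaks of the members and 0.81 over their 30 other peaks. Over all peaks these medians were 0.06 and 0.14.

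**Figure D2:**
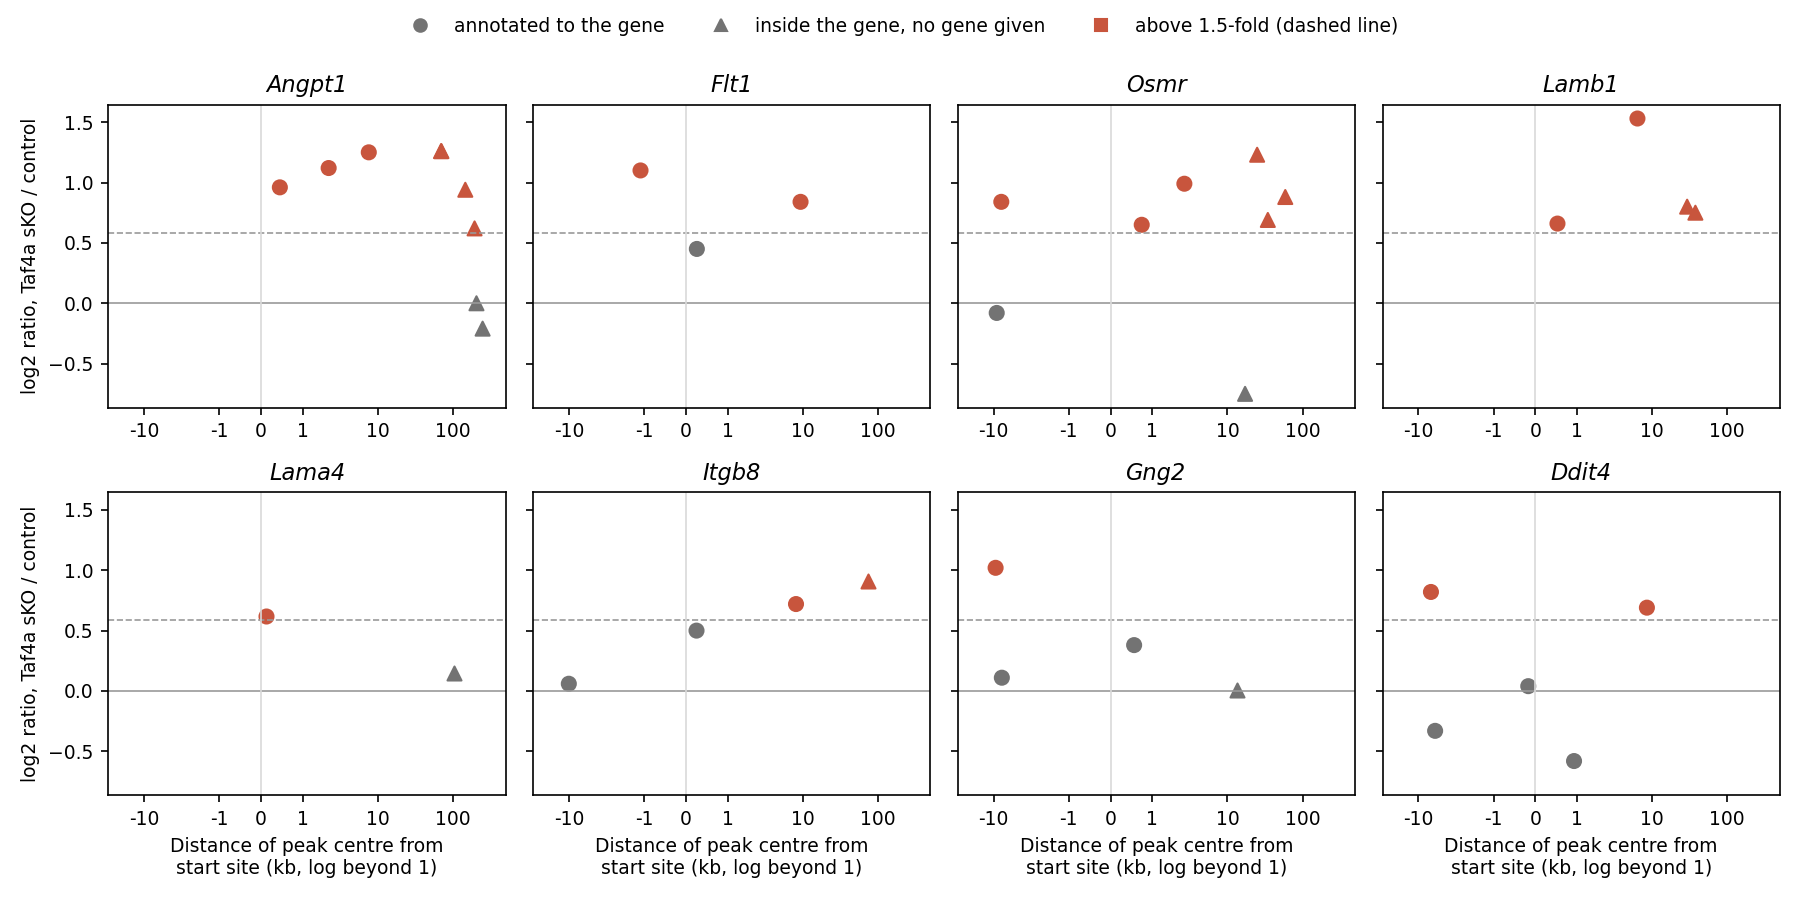
Log2 ratio of Taf4a sKO to control means for the 39 peaks against the distance of the peak centre from the gene's start site (kb, negative upstream, logarithmic beyond 1 kb). Circles are peaks annotated to the gene, triangles peaks inside it without a gene, and red marks ratios above 1.5-fold; the ratios run from -0.75 in Osmr to 1.53 in Lamb1, and the pair of Angpt1 peaks near 70 kb falls on one spot.

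The central 300 bases of 3 intronic leading peaks are shown first, because each holds AP-1 motif letters (TGANTCA, in capitals) within 2 bases of the peak centre. The leading peak upstream of Gng2 follows, in which none of the 8 motifs searched was found. AP-1 letters occurred in 3 of the 8 leading peaks, and those of Lama4 and Itgb8 also held none of the 8 motifs. The stretches shown are read from the plus strand of mm10. The Angpt1 stretch, chr15:42607673-42607972, lies in intron 1, the Osmr stretch, chr15:6849941-6850240, in intron 3, the Lamb1 stretch, chr12:31271462-31271761, in intron 4, and the Gng2 stretch, chr14:19986910-19987209, upstream of the start site. Whether the table counts peak starts from 0 or 1 is not stated, which could shift each stretch by 1 base.
Angpt1: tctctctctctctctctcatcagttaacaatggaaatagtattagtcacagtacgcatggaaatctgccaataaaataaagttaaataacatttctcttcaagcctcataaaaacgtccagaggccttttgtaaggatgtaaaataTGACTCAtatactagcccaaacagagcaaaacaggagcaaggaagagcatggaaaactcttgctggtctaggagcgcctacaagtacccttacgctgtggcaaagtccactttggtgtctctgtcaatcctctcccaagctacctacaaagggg
Osmr: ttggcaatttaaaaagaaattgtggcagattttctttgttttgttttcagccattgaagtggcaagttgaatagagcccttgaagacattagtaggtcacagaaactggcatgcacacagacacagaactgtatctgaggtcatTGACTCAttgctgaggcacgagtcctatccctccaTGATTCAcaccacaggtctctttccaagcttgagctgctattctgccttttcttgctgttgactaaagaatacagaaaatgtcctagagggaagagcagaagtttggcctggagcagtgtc
Lamb1: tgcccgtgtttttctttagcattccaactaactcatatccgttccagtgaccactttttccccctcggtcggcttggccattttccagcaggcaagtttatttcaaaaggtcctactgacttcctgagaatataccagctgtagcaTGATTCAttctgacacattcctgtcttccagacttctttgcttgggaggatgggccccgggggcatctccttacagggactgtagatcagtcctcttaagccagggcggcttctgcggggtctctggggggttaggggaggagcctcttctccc
Gng2: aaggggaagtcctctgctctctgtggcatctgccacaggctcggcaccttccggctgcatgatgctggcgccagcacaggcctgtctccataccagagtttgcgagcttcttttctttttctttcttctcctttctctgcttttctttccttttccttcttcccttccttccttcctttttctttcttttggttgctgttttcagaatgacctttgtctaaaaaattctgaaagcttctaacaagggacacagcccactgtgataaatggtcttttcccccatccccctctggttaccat

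Angpt1, which encodes the secreted ligand angiopoietin-1 of the Tie2 receptor, had the most peaks, 9, along the minus strand of chromosome 15 from 42424723 to 42676977. Its peaks fell into a risen and an unrisen part. The promoter peak, chr15:42676004-42677052, over exon 1, had values of 306, 310 and 325 in control and 563, 622 and 645 in Taf4a sKO MuSCs, a log2 ratio of 0.96. A peak of intron 1 about 2 kb into the gene, chr15:42674242-42675300, went from 366 ± 76.8 to 798 ± 17 (SD, n = 3), a log2 ratio of 1.12. Every Taf4a sKO value was above every control value in both. Much farther into the same intron lay a pair of narrow peaks whose centres are 789 bp apart. The leading one, chr15:42607675-42607970, had values of 50, 44 and 47 in control and 117, 111 and 115 in Taf4a sKO MuSCs, and its neighbour, chr15:42606873-42607193, had 35, 42 and 79 and then 124, 143 and 112. Both had a log2 ratio of 1.26, but control replicate 3 stood apart only in the second. Toward the 3′ end the ratios fell to 0.62 in intron 4, 0.00 in intron 5 and -0.21 in intron 8, where control values of 186, 199 and 169 overlapped with Taf4a sKO values of 161, 141 and 177.

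Flt1 encodes VEGF receptor 1, which binds VEGF-A with high affinity and acts in part as a decoy. It had 3 peaks on the minus strand of chromosome 5, and no member peak lay in the distal part of its body, which spans 147561604 to 147726011. The leading peak, chr5:147727019-147727235, just upstream of the start site, was low in all libraries, with 22, 21 and 30 in control and 62, 45 and 53 in Taf4a sKO MuSCs, a log2 ratio of 1.10. The promoter peak, chr5:147725048-147726447, had 215, 308 and 326 in control and 371, 386 and 403 in Taf4a sKO MuSCs, a log2 ratio of 0.45. The genotypes did not overlap in either peak, yet only the small upstream peak passed 1.5-fold. An intron 1 peak, chr5:147716411-147716877, went from 50.3 ± 5.5 to 91.0 ± 11.1 (SD, n = 3), with a log2 ratio of 0.84.

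Osmr encodes the ligand-binding chain of the oncostatin M receptor, which pairs with gp130. It had 8 peaks on the minus strand of chromosome 15 from 6813577 to 6874969, of which 6 were above 1.5-fold. The leading peak in intron 3, chr15:6849763-6850417, had 88, 81 and 148 in control and 221, 293 and 232 in Taf4a sKO MuSCs, a log2 ratio of 1.23. The promoter peak, chr15:6873574-6874871, had 1139, 1110 and 1264 in control and 1904, 1822 and 1806 in Taf4a sKO MuSCs, a log2 ratio of 0.65, and the intron 1 peak next to it one of 0.99. Osmr also held the member peak that fell most. In intron 2, chr15:6857319-6858244, the values were 197, 193 and 272 in control and 103, 182 and 107 in Taf4a sKO MuSCs, a log2 ratio of -0.75, so that a lower peak lay between higher ones on either side, in introns 1 and 3. The genotypes did not overlap there, although Taf4a sKO replicate 2 came close to the control values.

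Itgb8 encodes the integrin beta-8 chain, which with the alpha-v chain binds latent TGF-beta. Its leading peak, in intron 12 on chromosome 12 (chr12:119163830-119164844), had the highest level among the leading peaks, with 550, 576 and 817 in control and 1257, 1251 and 1143 in Taf4a sKO MuSCs, a log2 ratio of 0.91. Per kb that leading peak had a control value of 639, and the other 7 leading peaks had between 87.1 and 168. The promoter peak, chr12:119237782-119239310, went from 1606 ± 150 to 2265 ± 87.2 (SD, n = 3), a log2 ratio of 0.50. An intron 1 peak had a ratio of 0.72, and in an upstream peak with control values of 43, 30 and 44 and Taf4a sKO values of 31, 51 and 40 the genotypes overlapped.

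The 2 laminin genes differed in how much of the gene took part. Lamb1 encodes the laminin beta-1 chain of the basement membrane, and all 4 of its peaks on the plus strand of chromosome 12 (31265234 to 31329644) were above 1.5-fold. The leading peak in intron 4, chr12:31271456-31271766, had the highest ratio of the member peaks, 1.53 on the log2 scale, with 24, 25 and 32 in control and 74, 81 and 85 in Taf4a sKO MuSCs. The promoter peak, chr12:31264828-31266705, had 392, 280 and 384 in control and 555, 552 and 561 in Taf4a sKO MuSCs, a log2 ratio of 0.66. Broad peaks in intron 13 and over exons 19 and 20 had ratios of 0.80 and 0.75, the latter with means of 751 ± 76 and 1263 ± 79.2 (SD, n = 3). The genotypes did not overlap in any of the 4. Lama4 encodes the laminin alpha-4 chain, found in vessel and muscle basement membranes, and had 2 peaks on chromosome 10 (38965515 to 39110188). The promoter peak, chr10:38965180-38966085, which was also the leading one, had 99, 111 and 118 in control and 194, 138 and 175 in Taf4a sKO MuSCs, a log2 ratio of 0.62 and the smallest lead of the 8 genes. In intron 16, values of 72, 60 and 78 in control and 89, 56 and 89 in Taf4a sKO MuSCs overlapped.

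Gng2 encodes a G protein gamma subunit, and on chromosome 14 only its most distal upstream peak stood out. This leading peak, chr14:19986592-19987527, had 181, 104 and 148 in control and 300, 285 and 298 in Taf4a sKO MuSCs, a log2 ratio of 1.02. The promoter peak, chr14:19976574-19977551, had 625, 494 and 658 in control and 851, 759 and 699 in Taf4a sKO MuSCs, a log2 ratio of 0.38. The other 2 peaks had ratios of 0.11 and 0.01, with overlapping genotypes. Ddit4 encodes REDD1, a stress-induced inhibitor of mTOR complex 1, and was the member whose peaks were most divided. Its promoter peak, chr10:59951275-59952730, had the highest control level per kb among the start-site peaks, 2211, and its values were 3269, 2833 and 3548 in control and 3530, 3180 and 3239 in Taf4a sKO MuSCs, and the genotypes overlapped at a log2 ratio of 0.04. The leading peak, upstream at chr10:59958565-59958722, was small, with 19, 34 and 26 in control and 39, 48 and 55 in Taf4a sKO MuSCs, a log2 ratio of 0.82. A downstream peak, chr10:59942627-59943997, went from 397 ± 40.1 to 640 ± 8.7 (SD, n = 3), with a ratio of 0.69. In contrast, the peak over exon 3, chr10:59950742-59951069, went from 320, 290 and 346 to 237, 190 and 212, a log2 ratio of -0.58, and another upstream peak had a ratio of -0.33. The genotypes did not overlap in either of these lower peaks.

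How often a gene has a peak above 1.5-fold depends on how many peaks it has. Of the 14069 protein-coding genes that the table gives a peak above the minimum mean, 13.0% had at least 1 such peak. The share was 4.05% of genes with a single annotated peak, 32.1% of those with 3 and 55.4% of those with 5. Lama4 had a single annotated peak, Lamb1 had 2, Angpt1, Flt1, Gng2 and Itgb8 had 3 each, Osmr had 4 and Ddit4 had 5. The libraries were unequal too. Control replicate 3 was the highest control library in 31 of the 39 member peaks and in 70.1% of all peaks. Over the 8 leading peaks the mean centred log2 value was -0.64, -0.65 and -0.33 in the control libraries and 0.54, 0.51 and 0.57 in the Taf4a sKO libraries, so control replicate 3 lay nearer to the Taf4a sKO libraries than the others did.

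The authors' normalization leaves the median of all peaks 0.10 higher on the log2 scale in Taf4a sKO MuSCs. When the values were rescaled by median-of-ratios factors, by the total signal in peaks or by quantiles, this median was -0.008, -0.043 and -0.026, and 19 of the 39 member peaks were above 1.5-fold under each, against 15.4%, 14.2% and 15.5% of all peaks. The median log2 ratio over the member peaks was then 0.58, 0.55 and 0.56. The leading peak of Lama4 was below 1.5-fold under all 3 rescalings, with log2 ratios of 0.51, 0.47 and 0.51. It was also below 1.5-fold without control replicate 1 (0.56) and without Taf4a sKO replicate 1 (0.51).

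Sequence in the central 300 bases was compared between member peaks above 1.5-fold, the other member peaks and all peaks with a mean above 10, as a description. Both strands were searched for 8 motifs, and matches of different motifs overlapped in 5 cases in the member peaks. The AP-1 letters TGANTCA occurred in 13 of the 25 risen peaks (52.0%), in 3 of the 14 others (21.4%), in 22.0% of all peaks and in 33.9% of all peaks above 1.5-fold. These 13 peaks belonged to 4 genes, 5 of them to Angpt1, 5 to Osmr, 2 to Lamb1 and 1 to Itgb8, and the match lay within 30 bases of the peak centre in 3. The falling Osmr peak of intron 2 and the level Angpt1 peak of intron 5 held a match as well. Over all peaks the median log2 ratio was 0.29 with a match and 0.07 without, and over member peaks 0.86 and 0.62. The TEAD letters GGAATG occurred in 28.0% of the risen and 28.6% of the other member peaks and in 19.0% of all peaks, and the NF-Y letters CCAAT in 36.0%, 50.0% and 32.2%. The GC box GGGCGG occurred in 12%, 21.4% and 20.0%, the E-box CAGCTG in 12%, 35.7% and 29.1%, and the RUNX letters TGTGGT in 20.0%, 35.7% and 20.3%. The STAT letters TTCNNNGAA occurred in 8.0%, 7.14% and 8.89%, and the forkhead letters TGTTTAC in no member peak and in 3.75% of all peaks. In all peaks above 1.5-fold, the shares were 23.3% for TEAD, 33.6% for NF-Y, 9.18% for the GC box and 25.3% for the E-box. For RUNX, STAT and forkhead they were 22.0%, 11.2% and 4.24%. The median GC content of the window was 46.7% in risen member peaks, 50.5% in the others, 50.7% in all peaks and 49.0% in all peaks above 1.5-fold.

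Whether peaks just outside the member genes differed was tested, since the choice of the genes did not use them. Within 100 kb of a member's ends lay 59 other peaks with a mean above 10, of which 20 (33.9%) rose and 4 (6.78%) fell in Taf4a sKO MuSCs by limma with an adjusted p under 0.05. Over all peaks, 28.0% were higher and 13.9% lower by the same test. After the 3 rescalings by median-of-ratios, total signal and quantiles, 18 of the 59 were higher under each, against 25.3%, 23.4% and 24.8% of all peaks, and 7, 8 and 7 were lower, against 22.5%, 25.8% and 25.1%. The median log2 ratio of these peaks was 0.19. Genes differed in this respect. Around Flt1, 4 of 5 outside peaks were higher, around Ddit4 9 of 22 and around Lamb1 4 of 10, while none of the 4 around Osmr and not the single one near Angpt1 was.

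Among these 59 peaks, the largest rise was in a peak 55548 bp upstream of Lamb1 at chr12:31209541-31209832, with 18, 21 and 23 in control and 96, 85 and 72 in Taf4a sKO MuSCs. The genotypes stood well apart, and the log2 fold change was 1.97 ± 0.25 (SE; limma, adjusted p = 1.8e-06). The next was 67194 bp upstream of Flt1 at chr5:147793114-147793297, with 17, 16 and 16 and then 62, 40 and 44, a log2 fold change of 1.49 ± 0.30 (SE; limma, adjusted p = 3.4e-04). Neither peak has a gene in the table. A further peak on that side of Flt1, chr5:147748034-147748773, went from 205 ± 77.1 to 510 ± 16.0 (SD, n = 3; log2 fold change 1.37, limma, adjusted p = 4.0e-05), and this one, like the remaining Flt1 neighbours, was picked after its values were seen. The largest fall among the 59 was in a peak annotated to Ccn6, a secreted matricellular protein gene downstream of Lama4, from 218 ± 21.7 to 65.7 ± 27.2 (SD, n = 3), and its log2 fold change was -1.78 ± 0.22 (SE; limma, adjusted p = 5.0e-06). A peak 82976 bp from Ddit4 fell from 104 ± 17.2 to 42.0 ± 14.4 (SD, n = 3; limma, adjusted p = 2.2e-04).

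**Figure D3:**
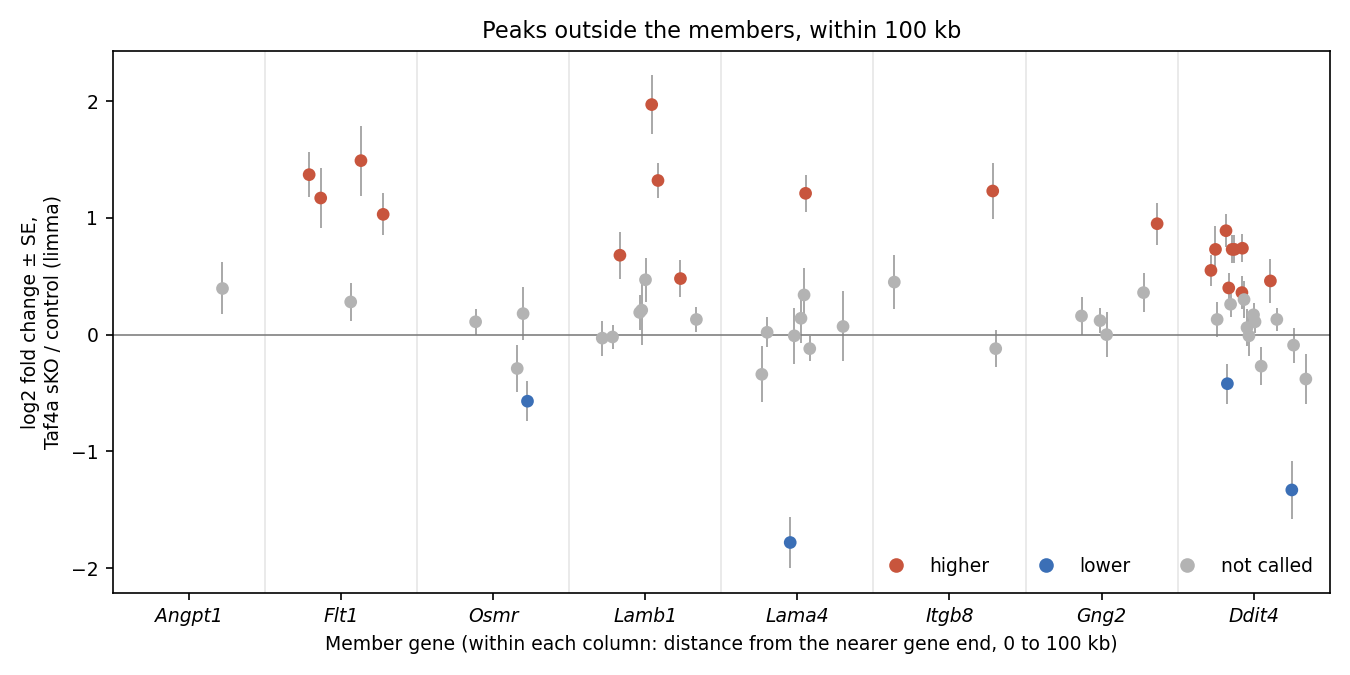
Limma log2 fold change ± SE, Taf4a sKO over control, of the 59 peaks outside the member genes, by member and, within each column, by distance from the nearer gene end (0 to 100 kb). Red peaks were higher and blue lower at an adjusted p under 0.05; 4 of the 5 peaks around Flt1 were higher, while the single peak near Angpt1 and all 4 near Osmr were not.

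The other genes of the same route were taken from a list of 157 PI3K-Akt pathway genes in 8 role groups. Of these, 143 had a peak with a mean above 10, giving 885 peaks by the rule used for the members. By limma, 325 of them (36.7%) rose and 87 (9.83%) fell in Taf4a sKO MuSCs, against 28.0% and 13.9% of all peaks. The median log2 ratio was 0.20. The split depended on scaling, since 296, 275 and 284 were higher and 158, 184 and 179 lower after rescaling by median-of-ratios, total signal and quantiles. Under these rescalings 25.3%, 23.4% and 24.8% of all peaks were higher and 22.5%, 25.8% and 25.1% lower. Counted within the RefSeq span of each gene, 282 of 773 peaks were higher and 73 lower. At least 1 higher peak was found in 81 genes and at least 1 lower peak in 47, and 28 genes held both kinds.

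Among the ligands, 31 of 84 peaks were higher and 7 lower. The largest rises were in peaks annotated to Fgf2, a fibroblast growth factor, and Lif, a cytokine of the oncostatin M family. The Lif peak was intronic, while the Fgf2 peak lay ahead of that gene's promoter peak. Fgf2 had 28, 23 and 57 in control and 162, 245 and 231 in Taf4a sKO MuSCs, and its log2 fold change was 2.62 ± 0.29 (SE; limma, adjusted p = 4.6e-06). Lif had 113, 123 and 139 and then 495, 574 and 539, a log2 fold change of 2.09 ± 0.14 (SE; limma, adjusted p = 6.4e-10). Both sets of values were far apart. The largest falls were in introns of Vegfd, a VEGF-family ligand, from 367 ± 67.3 to 61.0 ± 2.0 (SD, n = 3), and of Pdgfc, a platelet-derived growth factor, from 62.3 ± 9.0 to 10 ± 2.0.

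Among the receptors, 102 of 259 peaks were higher and 24 lower. Of these 259 peaks, 108 were counted under Fgfr2, a fibroblast growth factor receptor, because the deposited table runs that gene from 130162451 to 133123350 on chromosome 7, and 106 of them lay beyond the end at 130266808 that RefSeq gives. The largest changes of the group were among those 106, with log2 fold changes of 1.62 and 1.58 for the risen and -3.67 and -2.45 for the fallen peaks, and they may belong to other genes. With peaks without a gene counted only within the RefSeq span of each gene, a choice made after seeing the data, 62 of 154 receptor peaks were higher and 12 lower. The largest rises were then in peaks inside Egfr, the epidermal growth factor receptor gene, and Nrp1, a VEGF co-receptor gene (log2 fold change 1.41). The Egfr peak had 100, 103 and 107 in control and 289, 270 and 307 in Taf4a sKO MuSCs (log2 fold change 1.47, limma, adjusted p = 1.2e-07). It lies near an annotated start site at chr11:16877651-16878304, far into the gene. The promoter peak annotated to Egfr, chr11:16751797-16753649, had a log2 ratio of 0.31. The largest falls were in Il6st, which encodes gp130, from 51.0 ± 6.2 to 15.3 ± 8.5 (SD, n = 3), and in Tek, from 135 ± 25.1 to 43.0 ± 19.1. Of the relatives of the members, the VEGF receptors Kdr and Flt4 had 1 higher and no lower peak of 3, and the angiopoietin and Tie2 genes 4 higher and 3 lower of 16. All 4 higher ones were in Tek, which encodes Tie2, the receptor of angiopoietin-1. Tek also held lower peaks, with log2 fold changes of -1.69 and -0.56, and the other lower peak was in Angpt2 (-0.38). Receptor genes of the wider interleukin-6 and oncostatin M cytokine family (Il6st, Lifr and Il6ra) had 4 higher and 1 lower peak of 16.

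In laminins and other matrix genes, 65 of 155 peaks were higher and 29 (18.7%) lower. Peaks in Col4a4 and Col4a2, chains of basement membrane collagen IV, had the largest rises, from 11.3 ± 4.9 to 40.0 ± 9.5 and from 26.3 ± 4.2 to 93.0 ± 19.1 (SD, n = 3), and a Lama2 peak, from 52.0 ± 5.0 to 179 ± 17.5, had a change of the same size. A peak in Lama3, a laminin alpha chain gene, fell from 170 ± 27.7 to 30.7 ± 8.5. The log2 fold changes were 1.77 for these 3 peaks and -2.46 for the Lama3 peak, and each passed the limma test without overlap of the genotypes. The laminin chain genes other than Lamb1 and Lama4 had 35 higher and 23 lower peaks of 91, or 32 and 21 of 84 within their RefSeq spans. Among integrins, 37 of 98 peaks were higher and 7 lower, with the largest rises at Itga3 (log2 fold change 1.75) and Itga2 (1.48), which encode laminin- and collagen-binding alpha chains, and the largest falls in 2 peaks of Itgb3 (-2.00 and -1.58), the beta chain of the vitronectin receptor. The integrin beta chains other than Itgb8 had 15 higher and 6 lower peaks of 47.

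Among G protein beta and gamma subunits, 16 of 40 peaks were higher and 3 lower. A peak near Gng11 rose from 33.7 ± 7.2 to 124 ± 14.2 (SD, n = 3) and one in Gng7 from 60.0 ± 8.9 to 161 ± 26.4, while peaks at the promoters of Gng5 and Gng13 fell with log2 fold changes of -1.48 and -0.84. The gamma subunits other than Gng2 had 14 higher and 3 lower peaks of 32. PI3K, Akt and their phosphatases had 15 of 68 peaks higher (22.1%) and 9 lower, with rises in Pik3cb, a PI3K catalytic subunit (log2 fold change 1.19), and Pik3r1, a regulatory subunit (1.11), and falls in Phlpp1, a phosphatase of Akt (-1.82), and Pik3r5 (-1.41). In Pik3r1 the replicates were tight, with 756, 768 and 788 in control and 1667, 1659 and 1680 in Taf4a sKO MuSCs.

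The mTOR branch had 19 of 73 peaks higher (26%) and 6 lower. The largest rises were in Deptor and Sesn1, both inhibitors of mTOR signalling, with log2 fold changes of 1.40 and 0.85, and the largest falls in Tsc2, another inhibitor, and Rptor, the defining subunit of mTOR complex 1, with -1.39 and -1.28. Ddit4l, the paralog of Ddit4, had a single peak, which was higher with a log2 fold change of 0.44 (limma, adjusted p = 0.016). The targets of Akt and the cell cycle genes had 40 of 108 peaks higher and 2 lower. The largest rises were a pair of intronic peaks of Bcl2l1, which encodes the survival protein Bcl-xL, from 143 ± 47.7 to 413 ± 18.0 and from 41.3 ± 17 to 114 ± 1.5 (SD, n = 3). The 2 lower peaks, at Gsk3a and in Ccnd3, each had a log2 fold change of -0.41.

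**Figure D4:**
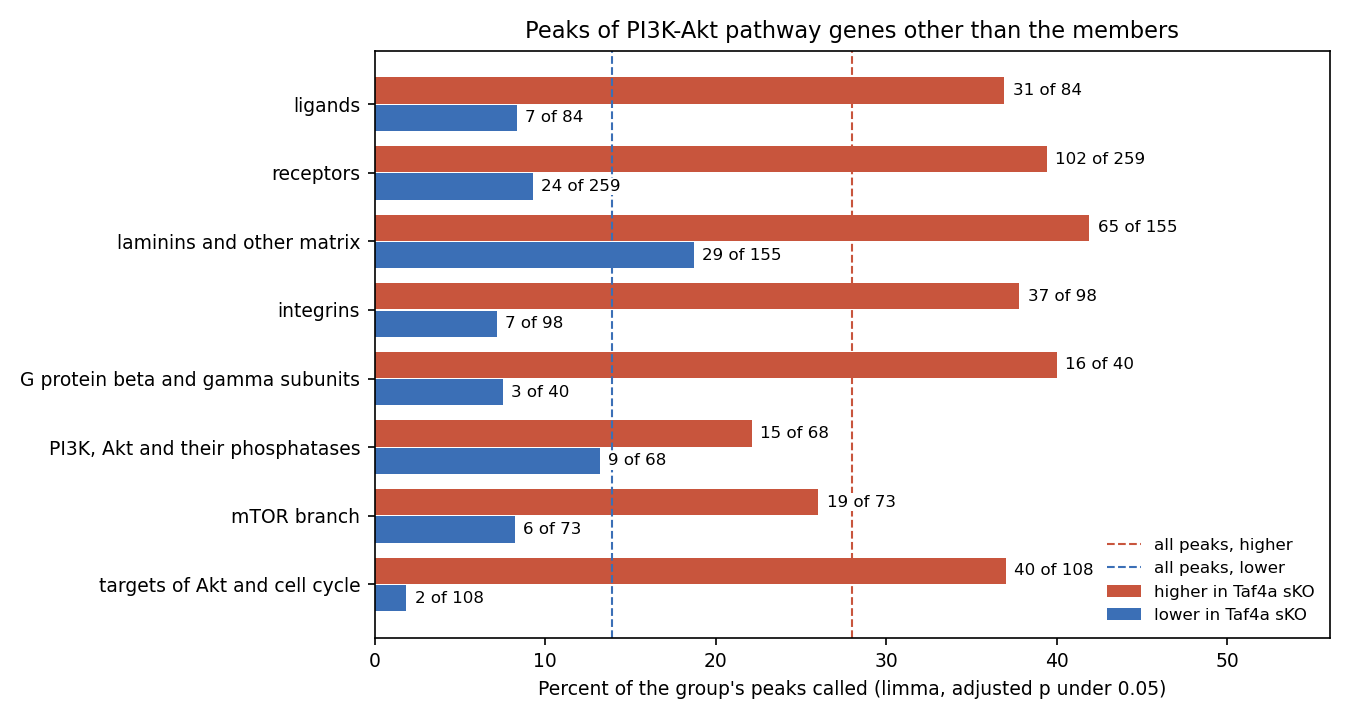
Percent of the peaks of each role group of the pathway list called higher (red) or lower (blue) in Taf4a sKO MuSCs by limma, with the number called of the number of peaks beside each bar (the receptors include 108 peaks counted under Fgfr2). Dashed lines give the shares over all peaks, 28.0% higher and 13.9% lower; the group of PI3K, Akt and their phosphatases and the mTOR branch lie below the line for higher peaks.

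Outside the members, the annotated peaks most like the mean of the 8 leading peaks over the 6 libraries were those of Ddr1, Zc3h12a, Il1r1, Sparc and Hspb8. Their Euclidean distances on the centred log2 scale ran from 0.0865 for Ddr1 to 0.121 for Hspb8, their Pearson r from 0.996 to 0.999, and their log2 ratios from 1.02 to 1.17. Ddr1 encodes a collagen receptor, Zc3h12a an RNase that degrades cytokine transcripts, Il1r1 the interleukin-1 receptor, Sparc a matrix glycoprotein and Hspb8 a small heat shock protein. The points share libraries and the genes were picked for likeness to a profile that separates the genotypes.

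Several members are also used by other cells of muscle, so markers of those cells were read at the annotated peak nearest their start site. For fibro-adipogenic cells, 4 of 5 markers had such a peak, and Ly6a, which encodes SCA1, had none annotated. The antibody sort would remove cells with SCA1, CD31 (endothelial) or CD45 (immune). Their summed values were 1448, 1215 and 1543 in control and 2311, 2142 and 2131 in Taf4a sKO MuSCs, so the genotypes did not overlap, and Col1a1 was the highest per kb. By limma, 3 of the 4 were higher, Dcn, Lum and Col1a1, and 1 was lower, Pdgfra, which had 56, 45 and 48 in control and 35, 23 and 35 in Taf4a sKO MuSCs. That Pdgfra peak is a small one upstream, and its larger promoter peaks had means of 428 and 531 (log2 ratio 0.31) and of 1197 and 1298 (0.12) in control and Taf4a sKO MuSCs and were not called. The part of these cells in the member peaks was not tested.

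For endothelial cells, 5 of 6 markers had a peak. Their summed values were 1797, 1593 and 2142 in control and 2264, 2299 and 2196 in Taf4a sKO MuSCs, so the genotypes did not overlap. Tek was the highest per kb and the only one called, and the median log2 ratio of the 5 was 0.10, equal to that of all peaks. Immune markers summed to 393, 457 and 604 and then 590, 528 and 636 over 2 of 3 genes, with Cd68 lower, Csf1r higher and no annotated peak of Ptprc. Markers of pericytes and smooth muscle had 3 of 4 genes with a peak, sums of 1620, 1483 and 1730 and then 1693, 1673 and 1702, and 1 higher, with none annotated at Rgs5. Myofibre markers summed to 666, 676 and 728 in control and 642, 580 and 558 in Taf4a sKO MuSCs, without overlap, and 1 of 3 was lower. The lower one was Acta1 (log2 ratio -0.66), read 3196 bp from its start site, while Ckm was nearly level (-0.06). Myh4 went the other way, with 63, 56 and 64 in control and 93, 78 and 86 in Taf4a sKO MuSCs (log2 ratio 0.48), but was not called. Of the 8 MuSC markers, 1 was lower and none higher, with summed values of 14895, 12438 and 15228 and then 13584, 12839 and 12876, which overlapped.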

How the data were processed

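ATAC-seq of freshly isolated MuSCs, 3 control and 3 Taf4a sKO libraries, was used. The deposited score is a read count per peak that the authors scaled for depth and rounded. The submitters' processing notes name Trimmomatic 0.39, STAR 2.7.11b, Picard 3.1.1 and featureCounts. A Tn5 shift of the reads is not described. The authors compared the genotypes in DESeq2 without scaling the depth-normalized values again. No sample column was left unused (0).

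The members and lists were chosen with earlier results of these data known. Peaks (mm10) were described by group means and log2((Taf4a sKO mean + 1)/(control mean + 1)). Peaks outside the members were tested with limma 3.58.1 (R 4.3.3; trend, robust) on log2(value + 1), and p-values were adjusted by Benjamini-Hochberg over the 75384 peaks with a mean above 10, and the script was tested on simulated data. Since the values are normalized, no count model was used. Features came from GENCODE vM21 and sequence from GRCm38.p6.

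Named were the leading and start-site peaks of each member, the 2 largest rises and 2 largest falls among called peaks of each role group without overlap of the genotypes and among called neighbouring peaks, and the 5 genes most alike; relatives of members were counted. One peak that this rule names is not reported here. Replicates are separate samples by the labels. Alternatives covered scaling, pseudocount, minimum mean, threshold, window, annotation, limma settings, a replicate block and each replicate left out. Precision is limited by 3 libraries per genotype.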

Additional observations from a re-analysis of the deposited data

How the results depend on the processing

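The counts of higher calls and the median log2 ratio over member peaks changed by less than 1.5 times or 1 SD under the other scalings, a pseudocount of 10, a minimum mean of 50 or none, and limma without trend and robust moderation. Counts of lower calls did not hold. With median-of-ratios factors, total signal and quantiles, 158, 184 and 179 pathway peaks (87 in the reported fit) and 7, 8 and 7 neighbouring peaks (4 in the reported fit) were lower. For the median-of-ratios and total-signal factors this is by construction, since they lower the Taf4a sKO values relative to control. Under quantiles the median log2 ratio over all peaks was -0.026, against 0.101 in the reported fit. Over all peaks, 21102 were higher and 10476 lower as reported, and 17664 and 19464 with total signal. With annotated peaks alone, 15 member peaks were above 1.5-fold, and 80 pathway peaks were higher and 20 lower, out of fewer peaks. At 2-fold, 8 member peaks remained above the threshold. In windows of 50 and 200 kb, 11 and 39 neighbouring peaks were higher and 2 and 7 lower.

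Leaving out each replicate in turn gave 22 to 25 member peaks above 1.5-fold, a median of 0.64 to 0.78, 256 to 420 pathway peaks higher and 70 to 86 lower, and 16 to 28 neighbouring peaks higher and 3 to 4 lower. No leading peak changed direction in any of 80 alternative values, but 4 of these, of Angpt1 and Lamb1, moved by more than the spread of the replicates. A change of direction was unlikely from the start, since leading peaks were picked for the highest ratio of each gene.

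With the replicate number as a replicate block, 334 pathway peaks were higher and 93 lower, and 21 neighbouring peaks were higher and 4 lower. Same-numbered libraries did not deviate together from their group means (r of 0.11, -0.12 and -0.03 across peaks), so they share only a number.

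Depth limits the small leading peaks of Flt1, Lamb1 and Ddit4 most, whose control means were 24.3, 27.0 and 26.3.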
